A study of Mus musculus with 6 samples.

Results

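The genes described here are 10 splicing factors linked to retinitis pigmentosa or to splicing in photoreceptors, measured by RNA sequencing in wild-type mouse retina. They were taken by name from the deposited tables: Prpf3, Prpf4, Prpf6, Prpf8, Prpf31, Snrnp200, Rp9, Dhx38, Msi1 and Msi2. All 10 were found among 15465 genes. The retinas came from C57BL6/J mice with no engineered allele or treatment named in the labels, and the labels give no age. There were 3 biological replicates, each a pool of 5 mice, with 2 technical replicates of each sharing 1 table of values, so n is 3 throughout. The series design also speaks of other genotypes of ocular tissue, which are left aside. Since only 1 group was measured, no groups were set against each other, and the factors were described by their levels, their order and their spread between pools. The titles of the samples were followed for the replicates. The source labels number the samples in another way, and the SDs rest on the titles.

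Introns are removed by the spliceosome, which is built from small nuclear ribonucleoprotein particles. The U4/U6 and U5 particles join into the tri-snRNP before they enter the spliceosome, and the U5 helicase then unwinds U4 from U6 so that the active site can form. Dominant mutations in several tri-snRNP proteins cause retinitis pigmentosa in people, a loss of rod photoreceptors, although every cell needs these proteins. The Musashi proteins are RNA-binding regulators, and in photoreceptors they promote the inclusion of a set of exons that other tissues skip.

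Levels were taken as RPKM (reads per transcript length and per library total), a scale that corrects for gene length and for sequencing depth, and the depth itself is unknown. Summed over all genes, the tables held 249532 to 302634 RPKM. The tissue carried the marks of retina: the 15 retina markers had a median of 110 RPKM, with the calbindin gene Calb1 the lowest at 12.8 RPKM. None of them passed the test of spread between replicates, set against genes at their level. Markers of tissues that lie next to the retina were also present. They were led by the lens crystallin gene Cryaa at 1674 RPKM, and the haemoglobin gene Hba-a1 was listed at 0 in all 3 replicates. Their sum was 2622, 1983 and 2246 RPKM in replicates 1, 2 and 3. Of this Cryaa, which did not pass the test of spread, made up 2058, 1569 and 1395 RPKM. Of 14 tested, 10 varied between replicates. Among those 10 are 3 with digit-extended symbols, the kind of most varying genes, described with the spread below. Whether those tissues contribute to the levels below was not tested. In RNA from whole retina, fewer cells of a type and less RNA per cell cannot be told apart.

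The 10 factors spanned more than an order of magnitude. Their median was 21.6 ± 2.73 RPKM, against 16.7 ± 2.28 for 70 other genes of the major spliceosome and 6.26 ± 0.396 for all genes (median of the gene means, with the SD of the medians in the 3 replicates). A mean of 10 RPKM or more was reached by 8 of the 10 factors, against 37.8% of all genes and 47 of the other 70 spliceosome genes. All 10 had at least 1 RPKM in every replicate, as did 77.5% of all genes and 66 of the other 70. The 3 factors whose symbols share their beginning with a longer or shorter symbol, Prpf3, Prpf4 and Prpf31, are treated with care below, and the median of the other 7 was 25.4 RPKM.

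**Figure D1:**
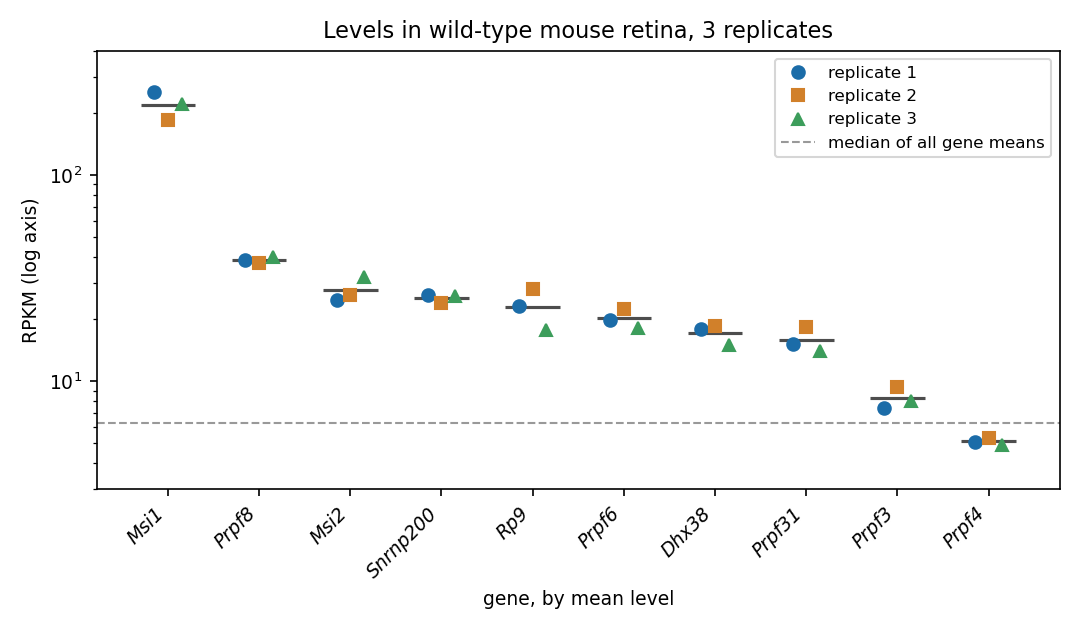
Level of each splicing factor in RPKM (log axis) in the 3 biological replicates, each a pool of 5 mice. Points are replicates and the bar is their mean; Msi1 stands above 180 RPKM in every replicate and Prpf4 lies near 5 RPKM.

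Of the 10 factors, the 3 genes of U4/U6 proteins had the lowest mean levels. Prpf31, which binds the stem loop of U4 RNA and holds U4/U6 together with U5, was present at 15.2, 18.4 and 13.97 RPKM in replicates 1, 2 and 3 (15.9 ± 2.30, SD, n = 3). Prpf3, which sits with Prpf4 on the U4/U6 duplex, was measured at 7.41, 9.39 and 8.02 RPKM (8.27 ± 1.01). Prpf4 itself was at 5.10, 5.32 and 4.92 RPKM (5.11 ± 0.200). The 3 genes did not overlap in any replicate. On the log2 scale Prpf3 was lower than Prpf31 by a difference of -0.93 ± 0.12 and Prpf4 was lower than Prpf3 by a difference of -0.68 ± 0.14, in 3 of 3 replicates each.

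RPKM divides reads by a gene length, and this order rests partly on it. No source used here names the lengths the authors divided by. When RPKM was multiplied by the annotated transcript length, 5223 bases for Prpf4 and 2832.5 bases for Prpf3, the difference between Prpf4 and Prpf3 turned to 0.21, with Prpf4 the higher. Prpf4 stayed below Prpf31 on that scale, at -0.87.

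The other U4/U6 proteins on the list fixed for this particle were at the low end too. Snu13, listed under its older symbol Nhp2l1, averaged 3.57 ± 0.646 RPKM, and the peptidyl-prolyl isomerase gene Ppih averaged 1.04 ± 0.207 RPKM. Of the 5 U4/U6 genes, 1 reached 10 RPKM, which was Prpf31. The mean of Prpf31 lay below that of the lowest U5 gene, Snrnp40, at 18.2 ± 2.93 RPKM, but their replicates overlapped: Prpf31 had 18.4 RPKM in replicate 2 and Snrnp40 had 15.7 RPKM in replicate 3.

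The U5 proteins were higher. Prpf8, the scaffold around the catalytic RNA of the spliceosome, had 38.7, 37.5 and 40.0 RPKM in replicates 1, 2 and 3 (38.8 ± 1.26). Snrnp200, the helicase that unwinds U4 from U6, had 26.2, 24.1 and 25.9 RPKM (25.4 ± 1.13). Prpf6, which bridges U5 to U4/U6 through its helical repeats, had 19.8, 22.5 and 18.2 RPKM (20.2 ± 2.20). The order of the 3 genes was the same in every replicate and their values did not overlap.

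Snrnp200 and Prpf8 kept a nearly fixed ratio. Snrnp200 was at 0.676, 0.641 and 0.645 of the Prpf8 level in replicates 1, 2 and 3, a difference of -0.61 ± 0.04 on the log2 scale. A ratio this steady is not particular to the pair: that of the helicase genes Dhx38 and Dhx16, described below, also had an SD of 0.04. Prpf6 was at 0.511, 0.6004 and 0.454 of Prpf8, which is -0.94 ± 0.20. The GTPase gene of the same particle, Eftud2, averaged 22.3 ± 2.74 RPKM, a difference from Prpf8 of -0.80 ± 0.22. Multiplied by transcript length these differences from Prpf8, the longest of the transcripts, were -0.75 for Snrnp200, -2.23 for Prpf6 and -1.96 for Eftud2. All 3 ratios gave p = 0.25 in an exact two-sided sign-flip test, the smallest p possible with n = 3.

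All 8 U5 genes reached 10 RPKM, with a median of 22.6 ± 0.823 RPKM against 5.11 ± 0.200 RPKM for the 5 U4/U6 genes. The ratio of the medians was 4.68, 4.38 and 4.52 in replicates 1, 2 and 3, or 2.18 ± 0.05 on the log2 scale. Prpf4 gives the U4/U6 median in every replicate, so the ratio and its SD rest on that 1 gene and its length. The ratio was not worked out with values multiplied by transcript length. The lists hold few genes, and 3 of the 5 U4/U6 genes are those with shared symbol beginnings, so the ratio is a description of these tables. One U5 gene passed the test of spread: the helicase gene Ddx23 had 27.9, 14.3 and 26.9 RPKM, with an adjusted p of 0.0463 in limma. It was called in 2 of the 9 other settings run, with adjusted p from 0.00059 to 1.00, the highest without replicate 2.

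Proteins that join the tri-snRNP or recycle it lay between these lists. Of 6 listed genes 5 were measured, from 6.25 ± 0.482 RPKM for Txnl4b to 18.9 ± 3.61 RPKM for Snrnp27. The median of their gene means was 18.0 RPKM. Within replicates 1, 2 and 3 the medians were lower, at 15.8, 16.8 and 14.3 RPKM (SD 1.26). None of the 5 passed the test of spread.

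**Figure D2:**
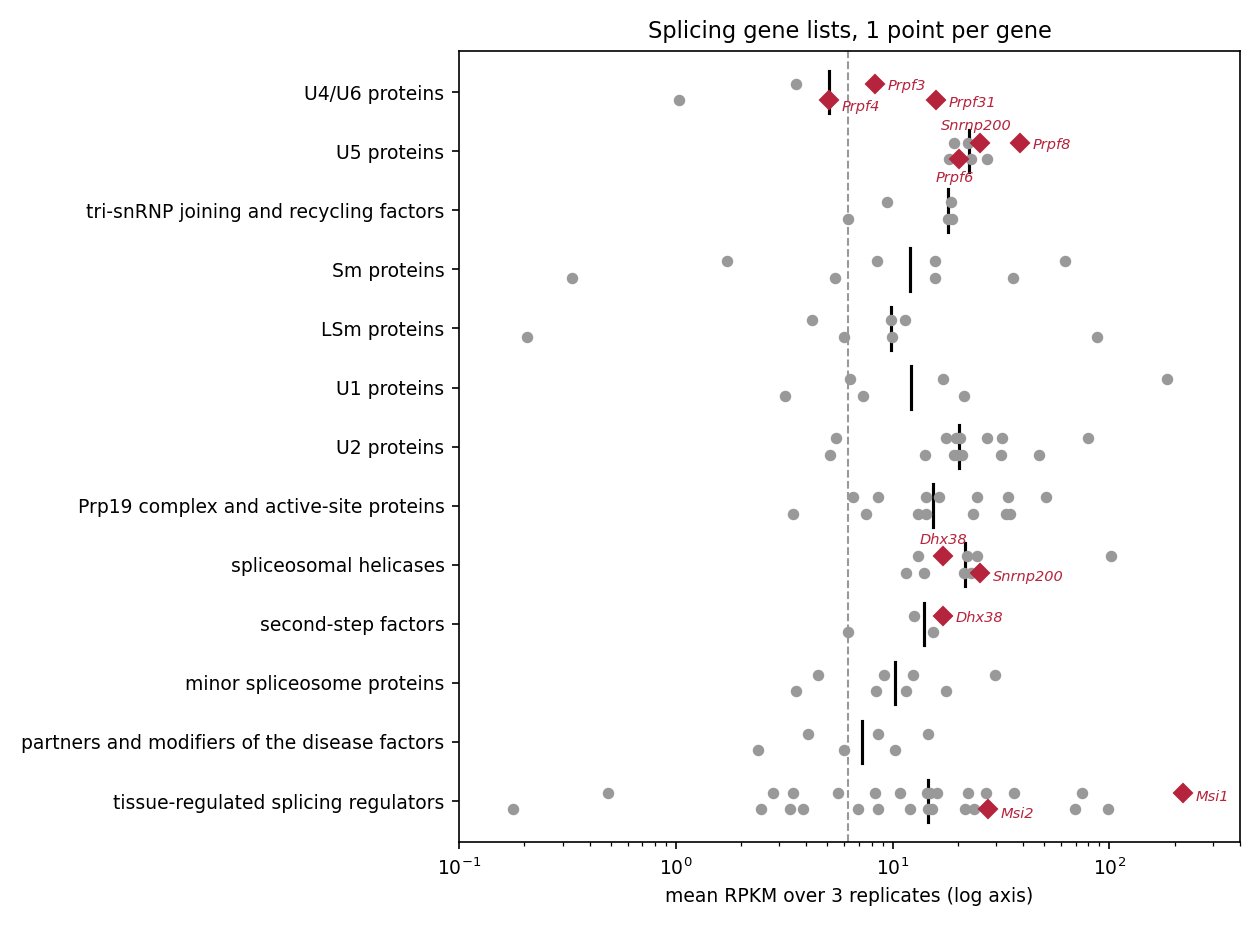
Mean RPKM over 3 replicates (log axis) of every measured gene in 13 splicing lists; red diamonds are the splicing factors described, grey points the other genes, black bars the list medians and the dashed line the median of all genes at 6.26 RPKM. The U5 genes all stand above 18 RPKM, while 4 of the 5 U4/U6 genes lie below 10 RPKM and Msi1 lies at the right end.

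Promoter sequences were set beside these levels for the pair of U5 factors with a nearly fixed ratio, Prpf8 and Snrnp200, and for the highest and lowest disease factors of U4/U6, Prpf31 and Prpf4. RefSeq sequences of build GRCm38.p6 were matched for 7 of the 10 factors by symbol. The 250 bases before the annotated start are given 5′ to 3′ on the strand of the gene, in lower case. Capitals mark CCGGAA, the core bound by ETS-family factors, and CCAAT, the box bound by NF-Y, each read on either strand (as TTCCGG or ATTGG). Prpf8 lies on the plus strand at chr11:75486527-75486776, Snrnp200 on the plus strand at chr2:127208136-127208385, Prpf31 on the plus strand at chr7:3629735-3629984 and Prpf4 on the plus strand at chr4:62408533-62408782.
Prpf8: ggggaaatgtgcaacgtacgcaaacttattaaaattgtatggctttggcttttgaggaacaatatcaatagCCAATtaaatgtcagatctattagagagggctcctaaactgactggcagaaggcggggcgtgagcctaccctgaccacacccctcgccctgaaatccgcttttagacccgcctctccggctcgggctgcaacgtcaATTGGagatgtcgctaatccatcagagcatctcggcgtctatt
Snrnp200: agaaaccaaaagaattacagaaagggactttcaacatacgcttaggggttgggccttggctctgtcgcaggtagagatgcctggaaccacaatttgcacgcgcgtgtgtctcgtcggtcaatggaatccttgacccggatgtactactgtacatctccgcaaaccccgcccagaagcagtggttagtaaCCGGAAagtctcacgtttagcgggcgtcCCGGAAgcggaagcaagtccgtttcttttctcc
Prpf31: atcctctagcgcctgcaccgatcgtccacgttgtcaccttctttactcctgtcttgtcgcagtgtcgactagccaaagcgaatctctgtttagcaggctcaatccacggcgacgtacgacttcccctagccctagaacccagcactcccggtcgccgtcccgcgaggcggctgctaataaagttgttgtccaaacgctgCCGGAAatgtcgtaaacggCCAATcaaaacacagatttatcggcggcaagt
Prpf4: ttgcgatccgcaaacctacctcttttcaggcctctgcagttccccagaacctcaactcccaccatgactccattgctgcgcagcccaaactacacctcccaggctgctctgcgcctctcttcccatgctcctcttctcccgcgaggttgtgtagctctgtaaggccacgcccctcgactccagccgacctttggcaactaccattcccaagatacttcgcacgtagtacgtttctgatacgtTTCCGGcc
The letters CCGGAA, read on both strands, stood in the windows of Prpf31, Prpf4, Prpf6 and Snrnp200, 4 of the 7, and in 19.8% of 10854 promoters of measured genes. In Prpf4 the match begins 8 bases before the start, and in Snrnp200 the nearer of the matches begins 33 bases before it. The letters CCAAT stood in the windows of Prpf8, Prpf31 and Msi2, 3 of the 7, and in 35.8% of all. TATAAA was found in 0 of the 7 and in 7.13% of all. GGGCGG, a box bound by Sp-family factors, stood in 3 of the 7 and in 57.1% of all, and CACGTG stood in Msi2 alone and in 8.32% of all. No motif searched contains another, all were read on both strands, and a match in letters says nothing of binding. The windows held 49.6% G and C in Prpf8, the lowest of the 7, and 75.6% in Msi2, the highest, against a median of 59.6% over all promoters.

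Rp9 and Dhx38 act beside the tri-snRNP. Rp9, which encodes a nuclear protein known to bind the kinase Pim1, had 23.2, 28.0 and 17.7 RPKM in replicates 1, 2 and 3 (23.0 ± 5.17). Before scaling it had the widest relative spread of the 10, with a coefficient of variation of 22.5%, high in replicate 2 and low in replicate 3. Pim1 itself averaged 2.40 ± 0.332 RPKM, and Rp9 exceeded it by 3.19 ± 0.43 on the log2 scale, a 9.12-fold difference seen in 3 of 3 replicates that came to 2.20 on the log2 scale when multiplied by transcript length. Among 119 splicing genes compared, the one with values nearest to Rp9 was Snrpa, the gene of a U1 protein, at 21.3, 25.8 and 16.7 RPKM.

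Dhx38, the helicase that remodels the spliceosome before the second step of splicing, had 18.0, 18.5 and 15.1 RPKM (17.2 ± 1.84). It was the highest of 4 second-step genes, whose median was 14.03 ± 1.65 RPKM and whose lowest was Cdc40 at 6.203 ± 0.487 RPKM. Its counterpart before the first step, the helicase gene Dhx16, averaged 22.0 ± 2.69 RPKM. Dhx38 stood at 0.757, 0.790 and 0.796 of Dhx16, a difference of -0.36 ± 0.04 on the log2 scale, and this turned to 0.06 when the values were multiplied by transcript length.

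Among 10 spliceosomal helicases the median was 21.6 ± 1.63 RPKM. Ddx39b, an RNA helicase that acts early in assembly and in export, was the highest at 102 ± 10.9 RPKM. Snrnp200 stood above the median and Dhx38 below it. The lowest mean was that of Ddx46, which was listed at 0.330, 33.9 and 0.330 RPKM in replicates 1, 2 and 3, while Ddx4, a germline helicase gene whose symbol is the beginning of that of Ddx46, was listed at 19.2, 0.490 and 17.2 RPKM. These opposite swings are of a kind that recurs in the tables and that is described with the spread below.

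The Musashi genes lay far apart, with Msi1 the highest of the 10 factors and Msi2 among the U5 genes in level. Msi2 had 24.7, 26.1 and 31.9 RPKM in replicates 1, 2 and 3 (27.6 ± 3.82), and Msi1 had 253, 184 and 221 RPKM (219 ± 34.2). The values do not overlap, and Msi2 was at 0.0979, 0.142 and 0.145 of the Msi1 level. The mean difference was -2.98 ± 0.32 on the log2 scale, which is 7.91-fold lower in Msi2 (exact two-sided sign-flip test, p = 0.25, the smallest that 3 replicates allow). With values multiplied by transcript length the difference was -3.74, and Msi2 has annotated transcripts of 695 to 6436 bases, so the size of the fold depends on the length used.

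Msi1 ranked 98th of 15465 genes, with 99.4% of genes lower, and it was higher than each of the 70 other genes of the major spliceosome. The nearest splicing gene was Snrnp70, which encodes the core protein of the U1 particle, at 174, 201 and 180 RPKM. The distance between them was 0.63 on the log2 scale over 3 replicates, the largest nearest-gene distance of the 10 factors. Msi2 ranked 2101st, with 86.4% of genes lower, and its nearest splicing gene was Snrnp200, at a distance of 0.33.

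Msi1 also led a chosen list of 28 regulators of tissue-specific splicing, and its level made up 28.6% of the summed mean RPKM of that list. The share depends on which genes were listed, and no other tissue was measured here. Next after Msi1 came Pcbp2 at 99.1 ± 12.5 RPKM, Khdrbs3 at 74.9 ± 13.1 RPKM and Celf3 at 69.7 ± 4.98 RPKM, all RNA-binding proteins. Msi1 exceeded Pcbp2 by 1.14 ± 0.37 on the log2 scale, in 3 of 3 replicates, and by 1.74 when multiplied by transcript length. Msi2 was sixth, after Celf4 at 36.2 ± 3.67 RPKM and beside Srrm3 at 26.9 ± 3.48 RPKM, a neuronal regulator of microexons.

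At the other end of the list, the epithelial regulators Esrp1 and Esrp2 averaged 0.487 ± 0.0473 and 0.177 ± 0.0306 RPKM. The polypyrimidine tract binding gene Ptbp1, which represses neuronal exons in other cell types, averaged 21.6 ± 1.53 RPKM, and Msi1 exceeded it by 3.33 ± 0.32 on the log2 scale, or 10.03-fold. The median of the gene means of the 28 regulators was 14.5 RPKM. Within replicates 1, 2 and 3 the medians were slightly lower, at 13.65, 14.4 and 14.3 RPKM (SD 0.423). A mean of 10 RPKM or more was reached by 17 of the 28 regulators. None of the 26 that were tested passed the test of spread.

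**Figure D3:**
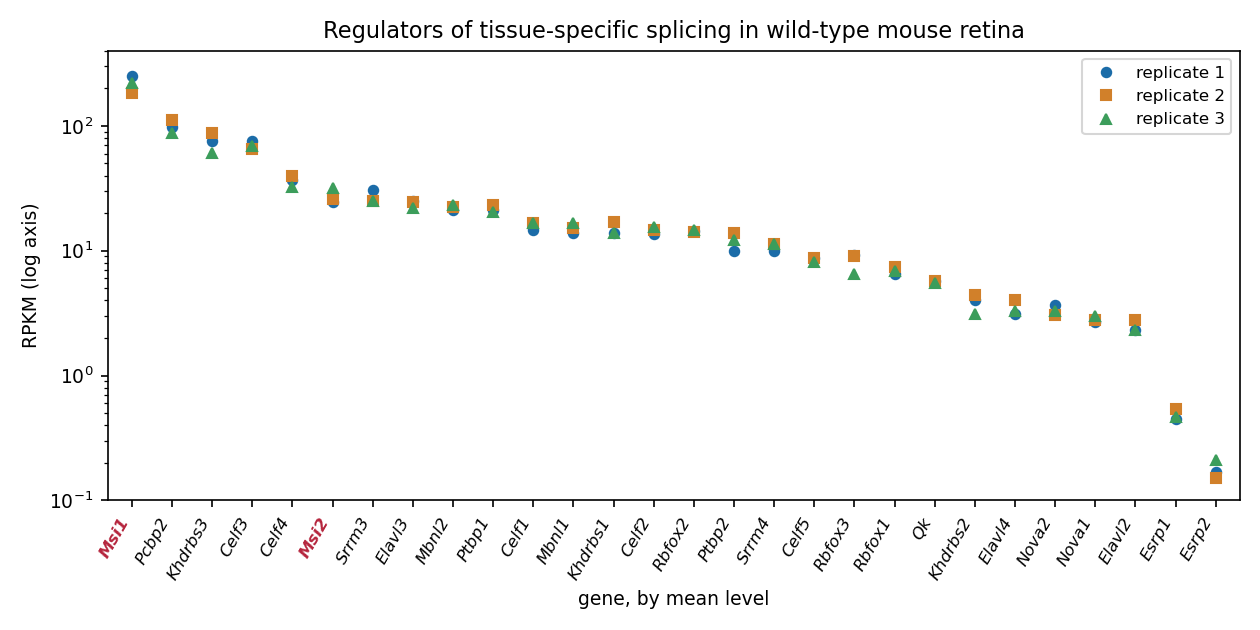
RPKM (log axis) of 28 tissue-regulated splicing regulators in the 3 biological replicates, ordered by mean, with Msi1 and Msi2 coloured. Msi1 stands above all other regulators in every replicate and Msi2 is sixth.

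Genes that hold exons known to depend on Musashi in photoreceptors were measured as whole genes, since the tables give no exon values. The 5 genes had a median of 34.0 ± 3.58 RPKM. The ciliary membrane gene Prom1 was the highest at 114 ± 4.65 RPKM, and Cep290, a gene of the connecting cilium, was the lowest at 5.68 ± 1.25 RPKM. The Bardet-Biedl gene Ttc8 averaged 34.0 ± 3.58 RPKM and gives the median. None of the 5 passed the test of spread.

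In order of level, the 10 factors ran from Msi1 through Prpf8, Msi2, Snrnp200, Rp9, Prpf6, Dhx38, Prpf31 and Prpf3 to Prpf4. Of the 9 pairs of neighbours in that order, 4 had values that did not overlap between genes. These were Msi1 over Prpf8, with a difference of 2.49 ± 0.21 on the log2 scale (1.24 when multiplied by transcript length), Prpf8 over Msi2 (0.50 ± 0.16), Prpf31 over Prpf3 (0.93 ± 0.12) and Prpf3 over Prpf4 (0.68 ± 0.14). When multiplied by transcript length, the last pair reversed, with Prpf4 above Prpf3 by 0.21, while Prpf3 stayed below Prpf31 at -1.07. Prpf8 over Msi2 was not worked out in that way. The symbols of Prpf3, Prpf4 and Prpf31 are among those treated with care below. The 5 pairs from Msi2 to Prpf31 overlapped. Prpf6 stood above Dhx38 in 3 of 3 replicates, with a difference of 0.23 ± 0.08, and Dhx38 above Prpf31 in 3 of 3, with 0.12 ± 0.12. The other 3 of those pairs changed order in 1 replicate and differed by less than their SD, so these replicates do not resolve the order of Msi2 and Snrnp200, of Snrnp200 and Rp9, or of Rp9 and Prpf6. Prpf6 lay below both Msi2 and Snrnp200 in 3 of 3 replicates, with no overlap.

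Against the other 70 genes of the major spliceosome the tri-snRNP factors were spread over the whole range. Prpf8 was higher than 63 of them, Snrnp200 than 55, Prpf6 than 45, Prpf31 than 34, Prpf3 than 18 and Prpf4 than 8. Rp9 was higher than 51 and Dhx38 than 36. Other particles gave similar middle levels: the 14 U2 proteins had a median of 20.3 ± 3.07 RPKM, from U2af1 at 5.12 ± 1.03 to Sf3b2 at 80.1 ± 12.3 RPKM, and the 14 proteins of the Prp19 complex and the active site had 15.3 ± 1.59 RPKM, from Cwc22 at 3.49 ± 0.239 to Prpf19 at 51.0 ± 2.87 RPKM.

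The remaining particles were lower at the median. The 6 U1 proteins had 12.2 ± 2.83 RPKM, from Snrpc at 3.18 ± 0.368 to Snrnp70 at 185 ± 14.5 RPKM. The 8 Sm proteins, which form the ring of most spliceosomal RNAs, had 12.1 RPKM as the median of the gene means. Their medians within replicates 1, 2 and 3 were all lower, at 9.21, 8.06 and 11.0 RPKM (SD 1.48). The Sm list includes Snrpb, whose swing in replicate 2 is described with the spread below. The 7 LSm proteins of the U6 ring had 9.87 ± 2.40 RPKM, from Lsm5 at 0.207 ± 0.0751 to Lsm4 at 87.7 ± 22.9 RPKM. The 8 proteins of the minor spliceosome, which removes a rare class of introns, had 10.3 ± 0.997 RPKM, from Zrsr2 at 3.59 ± 0.445 to Zmat5 at 29.8 ± 7.78 RPKM. The lowest Sm gene, Snrpn, was listed at 0.320, 0.390 and 0.280 RPKM and shares its transcript with Snurf, so its value is uncertain.

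Genes with many processed copies elsewhere in the genome can share reads with them, and their levels are uncertain. Among 10 housekeeping genes, Gapdh and Ppia are of this kind: Gapdh was at 9.88 ± 0.805 RPKM and Ppia at 0.453 ± 0.0289 RPKM, against 196 ± 17.1 RPKM for Actb. Whether shared reads bear on the low values of Ppih and of small genes such as Lsm5 was not tested.

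Known partners and modifiers of the disease factors were lower. The 6 genes had a median of 7.26 ± 1.26 RPKM, from Pim1 to Cnot3 at 14.6 ± 1.29 RPKM. Cnot3, a subunit of the CCR4-NOT deadenylase known in people to modify the penetrance of PRPF31 mutations, was close to Prpf31 here. Prpf31 was at 0.984, 1.22 and 1.07 of the Cnot3 level, a difference of 0.12 ± 0.15 on the log2 scale that is smaller than its SD (exact sign-flip test, p = 0.50).

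Genes of dominant retinitis pigmentosa listed outside the 10 factors stood far above the splicing factors at the median, but not gene by gene. The 10 factors, which include the Musashi regulators, had a median of 21.6 RPKM, and the 6 tri-snRNP factors alone had 18.0 RPKM. The 15 listed dominant disease genes measured of 16 had 304 ± 21.8 RPKM, the median being the level of the photoreceptor transcription factor gene Crx. Best1, a gene of the retinal pigment epithelium, was the lowest at 0.337 ± 0.0416 RPKM. Msi1 lay within the range of the photoreceptor genes, with 8 of the 15 above it. For Prpf8 and for each factor down to Prpf31, 10 of the 15 were higher, while 11 were higher than Prpf3 and 14 than Prpf4.

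None of the 10 factors passed the test of spread between the pools, set against genes at their level. In limma, with each gene's variance set against the robust trended prior and Benjamini-Hochberg adjustment over 12562 genes, 0 of 10 passed at 0.05, against 683 of all genes tested (5.44%). The lowest adjusted p of the factors was 0.894 for Msi1, and 0 of 10 had an unadjusted p under 0.05, against 1051 of all genes (8.37%). The test reaches only wide spreads: Ddx23, at an adjusted p of 0.0463, had an SD of 0.65 on the log2 scale. Msi1 had 0.32 against a prior SD of 0.18. Without the digit-extended symbols defined below, the unadjusted p in limma was lowest for Msi1 (0.0502) and Msi2 (0.0510). Without replicate 3 that of Msi1 was 0.0283. The SD on the log2 scale after scaling ran from 0.04 for Prpf6 to 0.32 for Msi1, with a median of 0.14 for the 10 factors and 0.15 for all genes tested. Msi1 spanned a factor of 1.52 from its highest to its lowest replicate, Msi2 1.43, Rp9 1.35 and Prpf6 1.06. The count over all genes was 303 without replicate 2 and 0 with limma's non-robust prior (704 genes with an unadjusted p under 0.05), while the count of factors was 0 in every setting run, 1 of which tested 7 of the 10.

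Most of the varying genes were of one kind. Of the 683, 627 (91.8%) had digit-extended symbols, meaning a symbol that begins with another symbol followed at once by a digit, or that shorter symbol. Without the 2656 genes of this kind, 98 of 10474 genes tested varied (0.936%). The U2 gene Snrpb2 and the Sm gene Snrpb show the pattern. Snrpb2 was listed at 3.90, 135 and 4.42 RPKM in replicates 1, 2 and 3, and Snrpb at 103, 5.77 and 78.8 RPKM. When the replicate 2 values of this pair were exchanged, the SD on the log2 scale was 0.21 for Snrpb2, against 2.77 as deposited, and 0.27 for Snrpb, against 2.39 as deposited. Of 115 genes tested in all splicing lists, 4 varied, namely Ddx23, Ddx46, Snrpb and Snrpb2, and 3 of those 4 are digit-extended.

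Prpf3, Prpf4 and Prpf31 carry such symbols and their replicates showed no such swing. Prpf4 deviated from its mean by 0.02, -0.07 and 0.05 on the log2 scale in replicates 1, 2 and 3. The SDs on the log2 scale were 0.11 for Prpf3 and 0.09 for Prpf31. Exchanging the values of Prpf3 and Prpf31 in any 1 replicate gave SDs from 0.47 to 0.62. The values of these genes do not overlap and their deposited SDs are small, so a rise was bound to follow. The exchange therefore adds nothing beyond the deposited SDs. Exchanging Prpf3 with Prpf39, a U1 gene whose symbol also begins with that of Prpf3, gave mixed values. In replicate 1 the exchange gave SDs of 0.48 for Prpf3, against 0.11 as deposited, and 0.09 for Prpf39, against 0.32 as deposited. In replicate 3 it gave 0.12 for Prpf3 and 0.41 for Prpf39. No exchange was run for Prpf4. An exchange in all 3 replicates would not show in this way, and the order of Prpf31 over Prpf3 rests on the deposited symbols.

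The small deviations that remained went with transcript length in replicates 2 and 3. Over 10326 tested genes without digit-extended symbols, the median deviation from the gene's own mean in replicate 2 was 0.11 for transcripts under 2 kb, 0.02 for those of 2 to 4 kb and -0.11 for those of 4 kb or more. In replicate 3 the same medians were -0.09, -0.02 and 0.11, and in replicate 1 they were -0.02, 0.01 and 0.01. The long genes Prpf8 and Snrnp200, of 7442 and 6745 bases, deviated by -0.17 and -0.20 in replicate 2 and by 0.15 and 0.13 in replicate 3. The short gene Rp9, of 1134 bases, deviated by 0.19 in replicate 2 and by -0.25 in replicate 3.

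Across the 10 factors, the Spearman correlation of the deviation with length was -0.43 in replicate 2, against -0.64 over the 10326 genes. In replicate 3 it was 0.26 for the 10 factors and 0.50 for the 10326 genes. Without Msi1 and Msi2, left out after their values were seen, it was -0.90 in replicate 2 and 0.67 in replicate 3 over the other 8 factors. In replicate 1 it was 0.37 for the 10 factors and 0.10 for the 10326 genes. These are descriptions across genes that share the same libraries and the same lengths, and genes are not independent replicates. The steady ratio of Snrnp200 to Prpf8 is therefore one between genes of like length. The part of length in it was not tested.

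**Figure D4:**
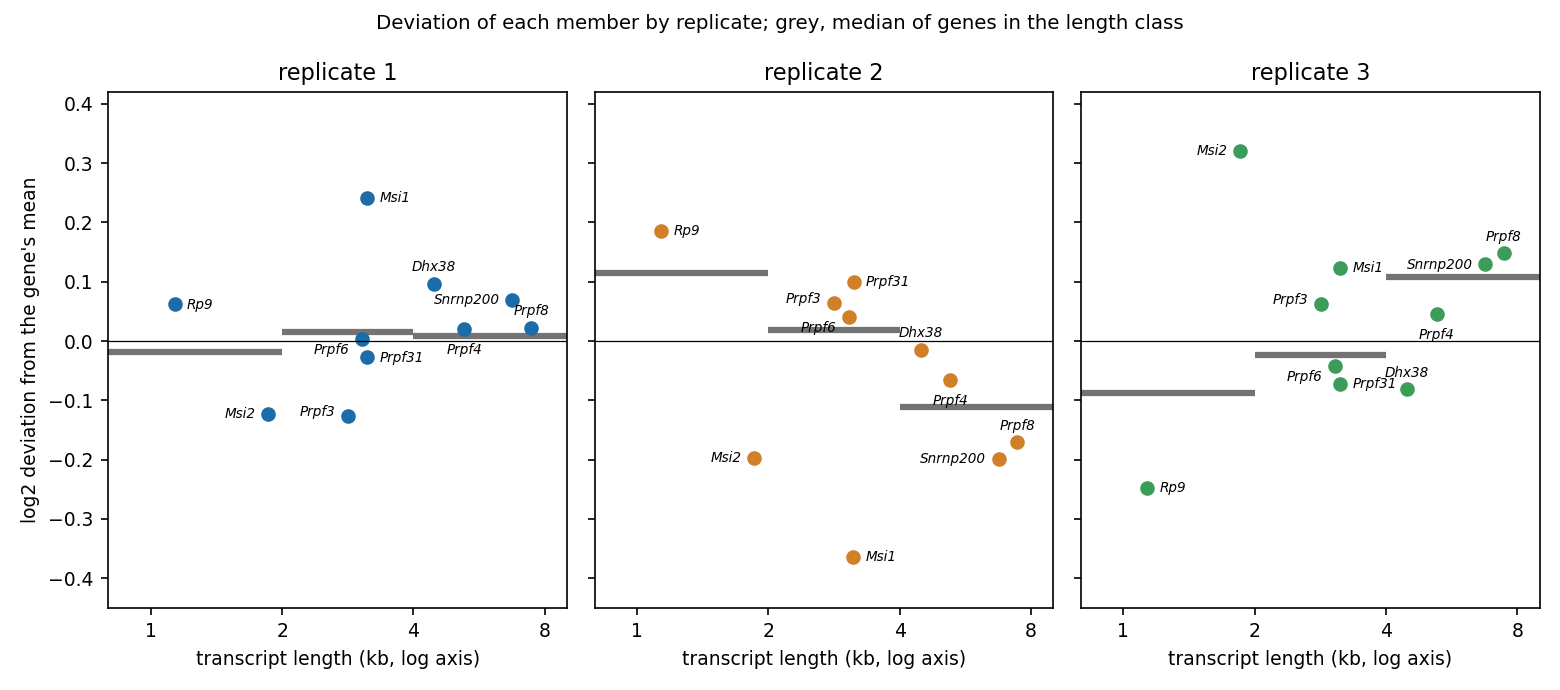
Deviation of each splicing factor from its own mean, as log2 after scaling, in replicates 1, 2 and 3 against transcript length in kb (log axis); grey bars are the median deviation of all tested genes without digit-extended symbols in 3 length classes. In replicate 2 Prpf8 and Snrnp200 lie below 0 and Rp9 above it, and in replicate 3 the sides are the other way round, while Msi1 and Msi2 (drawn at the median length of its transcripts) stand away from the grey bars.

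Msi1 and Msi2 were set beside the medians of their length classes, and the spread of single genes within a class is not given. The spread of Msi1 did not pass the test, with an adjusted p of 0.894 in limma. Msi1, of 3133 bases, deviated by 0.24, -0.36 and 0.12 in replicates 1, 2 and 3, in a length class whose medians were 0.01, 0.02 and -0.02. Msi2, with a median transcript of 1855 bases, deviated by -0.12, -0.20 and 0.32. In replicates 2 and 3 these have the opposite sign to the median of its class, under 2 kb. Its annotated transcripts run from 695 to 6436 bases, the tables do not tell them apart, and whether length bears on its deviations was not tested. With the trend on length removed, an alternative chosen after the data were seen, Msi2 had the lowest adjusted p of the factors in limma, 0.508 (unadjusted p = 0.0379). Both genes were lowest in replicate 2 after scaling, as were 14 of the 28 tissue-regulated regulators and 5193 of all 15465 genes.

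The genes nearest in level and replicate pattern to the remaining factors came from several particles. Over 3 replicates and 118 splicing genes compared, the U2 gene Sf3b3 was nearest to Prpf6, at a distance of 0.090 on the log2 scale with 19.6, 22.7 and 19.3 RPKM. The U2 gene Sf3a1 was nearest to Dhx38 at 0.094, and the Sm gene Snrpd2 to Prpf31 at 0.12. Isy1 was nearest to Prpf3 at 0.14 and Sf3b4 to Prpf4 at 0.19. For Prpf8 the nearest was Snrpd3 at 0.24, and for Snrnp200 it was Elavl3, a neuronal RNA-binding gene, at 0.24. With 3 replicates these distances mainly reflect the mean level.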

How the data were processed

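RNA of wild-type C57BL6/J retina was sequenced by the authors in 3 biological replicates with 2 technical replicates each. The authors deposited 1 column of values per biological replicate, taken here as RPKM. Neither labels nor headers give the unit, which was judged from the numbers and could equally be FPKM. The submitters' processing notes name build mm9, GSNAP and HTSeq without versions. The authors' annotation, gene lengths and strand setting are not stated there. Whole reads could not be recovered (25.4% to 29.0% of low values were whole within 0.1, against 20% by chance), so no depth, interval or floor is given.

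Each table held 15468 rows. 3 symbols stood on more than 1 row and were kept once. Values are printed as deposited. Tests used log2(RPKM + 0.1), which understates differences of low genes, for the 12562 genes averaging at least 1 RPKM. Replicates were first divided by trimmed-mean factors (30% of log ratios and 5% of means trimmed) of 0.983, 1.09 and 0.932. Left unscaled, they differed by log2 shifts of -0.02, 0.13 and -0.10. Ratios between 2 genes in 1 table need no scaling. Spread was tested in R 4.3.3 by an F test of each gene's variance against limma's robust trended prior (limma 3.58.1 with statmod 1.5.0). These p-values measure only the spread between the 3 pools.

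Transcript lengths (98.5% of genes) came from GENCODE M21 and promoters from RefSeq GRCm38.p6, a build other than mm9, with the outermost start used for each gene. The factors and gene lists were chosen with earlier results of these data known. Named are all 10 factors, the highest and lowest gene of each list, each varying splicing gene and the nearest splicing gene of each factor. Varying markers of neighbouring tissues are given as a count. The highest gene of the retina marker and dominant disease lists is not reported here. Other genes named (Ddx4, Dhx16, Eftud2, Prpf39, Snu13, Ptbp1, Esrp1, Ttc8, Gapdh, Crx and the leading regulators) were added after their values were seen.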

Additional observations from a re-analysis of the deposited data

How the results depend on the processing

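The count of the 10 splicing factors that varied between replicates was 0 in limma under all 9 other settings (7 factors tested in the one without digit-extended symbols), with the lowest adjusted p of the factors between 0.497 (without replicate 3) and 0.988 (no scaling). The count of all genes was 683. It was 0 with limma's non-robust prior (704 genes had an unadjusted p under 0.05). The count was 98 once genes with digit-extended symbols were left out and 303 to 473 with 1 replicate left out, lowest without replicate 2. It was 682 with a pseudocount of 1, 617 with no filter on low values, 794 with no scaling and 562 with the length trend removed, an alternative chosen after the data were seen. The causes were not tested, except that fewer genes or samples entered some fits. The median of the factors was 25.4 RPKM for the 7 without digit-extended symbols. It was 56.4 with RPKM multiplied by transcript length in kb, a quantity of another scale, and 19.7 to 23.1 RPKM with 1 replicate left out. Msi2 over Msi1 ran from -3.74 to -2.80 on the log2 scale over all settings. The level of each factor moved by less than its SD when any 1 replicate was left out. With 3 values this holds for any gene, so it is no measure of how steady the levels are. No paired analysis was possible because there is 1 group. The unknown depth limits what can be said of low genes such as Ppih.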
